A study of Mus musculus with 4 samples.

Results

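The genes described here are 10 members of the Notch pathway, namely the receptors Notch1, Notch2, Notch3 and Notch4, the ligands Jag1, Jag2, Dll1 and Dll4, and the target genes Hey1 and Hes1. They were chosen by name, and each was read from the row of the array table whose annotation gives that gene symbol and no other. All 10 were found, each with a single such row, among 19938 genes measured in this way. RNA came from mesothelium, the thin epithelium that covers organs and lines body cavities, of adult Wt1-cre;Rosa26ReYFP mice on a c57bl/6 background that received no treatment. In these animals the Cre recombinase follows the activity of Wt1, a gene of mesothelial cells, and switches on a yellow fluorescent reporter, so both tissues carried the same alleles. Visceral mesothelium was taken from the omentum, a fatty fold of the abdominal cavity, and parietal mesothelium was peeled off the muscle of the body wall. Each tissue was hybridized to 2 Affymetrix Mouse Gene 1.0 ST arrays. The tissue was used as isolated. The labels call the 2 arrays of each tissue biological replicates but do not give the animals behind each array. The p-values therefore measure only the spread between these arrays.

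Notch signaling passes between touching cells. A ligand of the Jagged or Delta-like type on the surface of a cell binds a Notch receptor on its neighbour, the receptor is cut first by an ADAM protease and then by gamma-secretase, and its freed intracellular part joins the DNA-binding protein Rbpj and a Mastermind coactivator in the nucleus to switch on genes of the Hes and Hey families. Hes and Hey proteins are repressors of the basic helix-loop-helix class and recognise short sites in DNA. In the vessels that supply such tissues, Notch1, Notch4 and Dll4 are known from endothelium and Notch3 from pericytes and smooth muscle, in skeletal muscle the pathway keeps satellite cells quiescent, and in the epicardium, the mesothelium of the heart, it takes part in the formation of smooth muscle.

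Promoter sequences of 300 bases, 250 before and 50 from the annotated start, were taken from RefSeq with the GRCm38.p6 build, and 8 of the 10 genes had an entry. Hey1 and Hes1 had none. The first sequence, of the pathway target Hes5, shows how the site of Rbpj looks in a target gene, and the other sequences belong to Jag2 and Dll1, the ligands with the lowest adjusted p among the 10 genes. In Hes5 the capitals mark the core of the Rbpj site, TGGGAA on either strand, and in Jag2 and Dll1 they mark CACGNG on either strand, a site of Hes and Hey proteins. Dll1 has 2 annotated starts.
Hes5 promoter (chr4:154960673-154960972, plus strand): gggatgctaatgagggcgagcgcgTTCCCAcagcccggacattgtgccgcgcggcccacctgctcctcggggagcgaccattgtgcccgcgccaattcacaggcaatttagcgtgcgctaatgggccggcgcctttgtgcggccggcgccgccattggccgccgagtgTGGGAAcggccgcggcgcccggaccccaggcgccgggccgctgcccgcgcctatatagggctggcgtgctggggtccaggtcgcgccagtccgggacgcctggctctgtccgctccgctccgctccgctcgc
Jag2 promoter (chr12:112929446-112929745, minus strand): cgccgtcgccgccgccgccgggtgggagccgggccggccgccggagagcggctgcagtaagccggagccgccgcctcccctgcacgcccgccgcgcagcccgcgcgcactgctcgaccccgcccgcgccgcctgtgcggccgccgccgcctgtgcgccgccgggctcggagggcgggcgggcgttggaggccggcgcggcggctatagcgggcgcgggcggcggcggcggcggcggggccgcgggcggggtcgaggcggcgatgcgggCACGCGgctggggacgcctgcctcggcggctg
Dll1 promoter, start with the lower coordinate (chr17:15375774-15376073, minus strand): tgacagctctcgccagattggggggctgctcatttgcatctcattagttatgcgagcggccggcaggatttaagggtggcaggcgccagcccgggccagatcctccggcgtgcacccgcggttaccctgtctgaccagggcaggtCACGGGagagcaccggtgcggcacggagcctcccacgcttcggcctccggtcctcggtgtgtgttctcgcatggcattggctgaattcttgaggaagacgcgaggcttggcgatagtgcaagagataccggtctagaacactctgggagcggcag
Dll1 promoter, start with the higher coordinate (chr17:15376883-15377182, minus strand): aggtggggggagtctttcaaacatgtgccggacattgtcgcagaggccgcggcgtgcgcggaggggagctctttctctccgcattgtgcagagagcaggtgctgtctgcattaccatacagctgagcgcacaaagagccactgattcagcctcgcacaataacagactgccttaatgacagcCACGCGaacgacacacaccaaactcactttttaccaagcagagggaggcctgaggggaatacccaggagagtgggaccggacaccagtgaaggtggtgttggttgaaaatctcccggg
The Hes5 window held the Rbpj core in 2 places, at bases -226 to -221 and -82 to -77, counted from the annotated start. In the 9 windows of the 8 receptor and ligand genes the Rbpj core was found in 0, against 25.6% of 32851 promoter windows. CACGNG was found in 7 of these 9 windows, against 27.5% of all windows, with single matches in Jag2 at bases 19 to 24 and in Dll1 at -105 to -100 and -68 to -63. GC content was not matched in this comparison, and it was 86.0% in the Jag2 window. A match describes letters in the window and was not tested as a binding site.

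None of the Notch receptors, ligands and targets reached a 1.5-fold difference between visceral and parietal mesothelium, and the sizes of their differences were close to those of genes in general. A gene was called different where limma, which shares information on the spread between arrays over all genes, gave a Benjamini-Hochberg adjusted p under 0.05 and the fold was at least 1.5. By this rule 0 of the 10 genes were called, whereas 9.6% of all 19938 genes were, 5.22% as higher in visceral and 4.39% as higher in parietal mesothelium. Without adjustment, limma gave 4 of the 10 genes a p under 0.05, against 27.1% of all genes, and the methods' t-test, which takes each gene alone, gave 2 of the 10 without adjustment, against 19.5% of all genes, and none of either with it. With 10 genes, a count of 0 called is near the share of all genes and is not a result about them. The median log2 difference, visceral minus parietal, was -0.055 over the 10 genes and 0.0015 over all genes. The size of the difference, without its sign, had a median of 0.13 in the 10 genes and 0.14 in all genes. The arrays of the 2 tissues did not overlap for 5 of the 10 genes, against 56.3% of all genes. Signals are log2 values of the RMA method, which hold no detection call, so a low value can be background, and the signals of different genes cannot be set against each other.

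**Figure D1:**
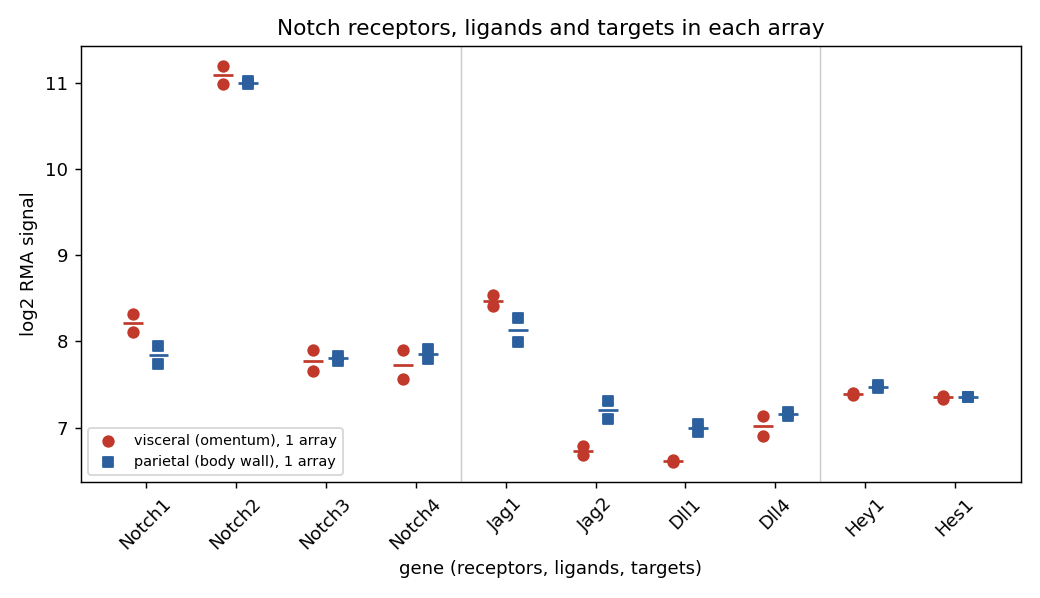
Log2 RMA signal (y axis) of the 10 genes (x axis), 1 point per array, red circles for visceral and blue squares for parietal mesothelium, with short lines at the means of 2 arrays. The arrays of the tissues overlap for Notch2, Notch3, Notch4, Dll4 and Hes1, and for Jag2 and Dll1 both visceral arrays lie below both parietal arrays.

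Among the receptors, Notch1 had the largest difference. Its log2 signal was 8.11 and 8.32 in the visceral arrays and 7.74 and 7.94 in the parietal arrays. Both visceral values lay above both parietal ones, although the lower visceral array was within 0.17 of the higher parietal array. The means were 8.21 ± 0.15 (SD, n = 2) and 7.84 ± 0.14 (SD, n = 2), a log2 difference of 0.37 with a standard error of 0.12 and a 95% interval of 0.08 to 0.66 (adjusted p = 0.104 from limma). Notch1, which acts in endothelium and in T cell development, thus did not pass the test, and its interval reaches past a log2 difference of 0.58, which is 1.5-fold.

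Notch2, a receptor needed for marginal zone B cells and some dendritic cells, had signals of 10.99 and 11.20 in visceral and 10.99 and 11.02 in parietal mesothelium. These arrays overlapped, and the log2 difference was 0.092 with a standard error of 0.10 and a 95% interval of -0.16 to 0.34 (adjusted p = 0.633 from limma). Notch3, the receptor of pericytes and vascular smooth muscle, read 7.65 and 7.90 in visceral against 7.78 and 7.83 in parietal mesothelium. The parietal values lay between the visceral ones, with a log2 difference of -0.027, a standard error of 0.11 and a 95% interval of -0.30 to 0.25 (adjusted p = 0.918 from limma). For Notch4, an endothelial receptor, the visceral arrays gave 7.56 and 7.90 and the parietal arrays 7.80 and 7.91. Here the visceral arrays were farther apart than the tissues, with a standard deviation of 0.24 between them against a log2 difference of -0.13 with a standard error of 0.13 (95% interval -0.46 to 0.20, adjusted p = 0.614 from limma). For these 3 receptors the interval lay within 1.5-fold in either direction. A further 6 rows of the table name Notch4 together with Sympk and were left out.

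The ligands did not move in a common direction. Jag1 was the ligand with the higher mean in visceral mesothelium, while Jag2 and Dll1 had the higher means in parietal mesothelium with an adjusted p under 0.05, and Dll4 lay between. Jag2, a ligand needed for limb and craniofacial development, had signals of 6.78 and 6.68 in the visceral arrays and 7.31 and 7.10 in the parietal arrays. The tissues were separated by at least 0.32 and at most 0.63 in any pair of arrays. Its means were 6.73 ± 0.07 (SD, n = 2) and 7.20 ± 0.15 (SD, n = 2), a log2 difference of -0.47 with a standard error of 0.11 (95% interval -0.73 to -0.21, adjusted p = 0.0377 from limma), or 1.39-fold. Dll1, a ligand for Notch in somites and in the splenic marginal zone, had visceral signals of 6.599 and 6.62 and parietal signals of 6.95 and 7.05. Its means were 6.61 ± 0.02 (SD, n = 2) and 6.998 ± 0.07 (SD, n = 2). The log2 difference was -0.39 with a standard error of 0.08 (95% interval -0.60 to -0.18, adjusted p = 0.0355 from limma), or 1.31-fold. Both ligands passed the adjusted p but stayed under the fold of 1.5, an adjusted p that 14.2% of all genes reached. Only 36.0% of all genes had a lower mean signal than Jag2 and 32.9% than Dll1, so background can be part of their values. The adjusted p of Dll1 rose to between 0.0841 and 0.196 when any single array was left out. That of Jag2 was 0.0341 without parietal replicate 2, 0.0850 if visceral replicate 1 was dropped, 0.141 in the absence of visceral replicate 2, and 0.156 once parietal replicate 1 was removed.

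Jag1, a ligand of endothelium and smooth muscle that is mutated in Alagille syndrome, had signals of 8.53 and 8.41 in visceral and 7.997 and 8.27 in parietal mesothelium. The nearest arrays of the 2 tissues were 0.14 apart and the farthest 0.54. The means were 8.47 ± 0.09 (SD, n = 2) and 8.13 ± 0.19 (SD, n = 2), a log2 difference of 0.34 with a standard error of 0.12 (95% interval 0.04 to 0.64, adjusted p = 0.135 from limma). Jag1 thus did not pass the test, and a 1.5-fold difference lies inside its interval. Dll4, the Delta-like ligand of arterial endothelium and of sprouting tip cells, read 6.90 and 7.14 in visceral and 7.13 and 7.18 in parietal mesothelium. Its arrays overlapped, with a log2 difference of -0.13, a standard error of 0.11 and a 95% interval of -0.40 to 0.13 (adjusted p = 0.493 from limma).

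**Figure D2:**
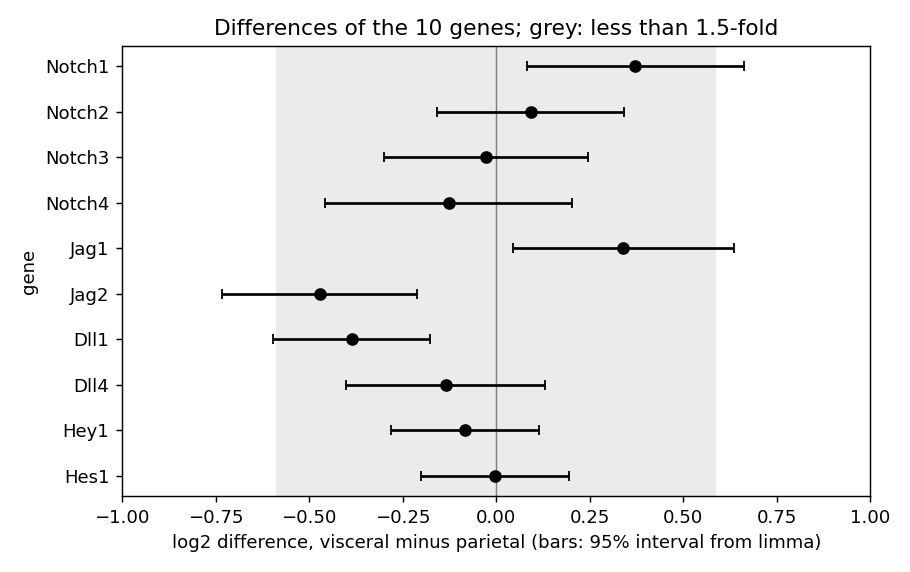
Difference in log2 signal, visceral minus parietal (x axis), for each gene (y axis). Points are the differences of means over 2 arrays per tissue, bars the 95% intervals from limma, and the grey band covers differences under 1.5-fold; the intervals of 6 genes lie within the band, and those of Notch1, Jag1, Jag2 and Dll1 reach past it.

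Neither target was called. Hes1, a repressor that Notch switches on in many tissues, had signals of 7.37 and 7.33 in visceral and 7.35 and 7.36 in parietal mesothelium. Its log2 difference was -0.0041 with a standard error of 0.08 and a 95% interval of -0.20 to 0.19 (adjusted p = 0.985 from limma). The arrays overlapped, and 98.1% of all genes had a larger difference. Hey1, a target in arterial endothelium, read 7.40 and 7.38 in visceral and 7.46 and 7.49 in parietal mesothelium. Both visceral arrays lay below both parietal arrays by at least 0.057 and at most 0.11. The log2 difference of -0.084 had a standard error of 0.08 and a 95% interval of -0.28 to 0.11 (adjusted p = 0.574 from limma). For both targets the interval lay within 1.5-fold, as for 6 of the 10 genes in all and 76.8% of all genes. The interval describes array signal. Both targets lay below the median signal of all genes, 7.73, where a value can be background, so a larger difference in transcript level is not excluded. These intervals are not adjusted for the number of genes.

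**Figure D3:**
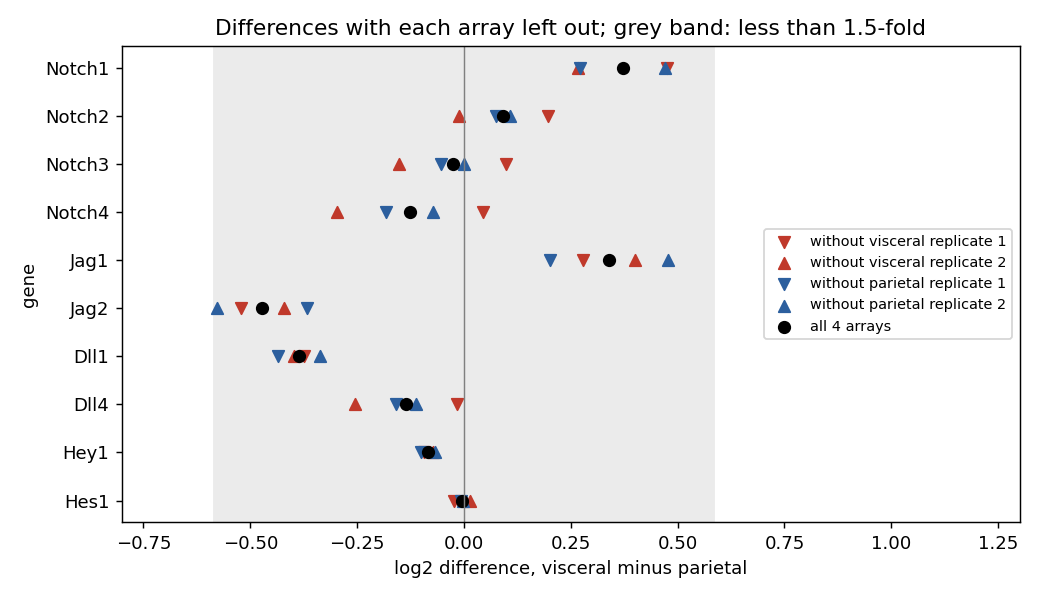
Difference in log2 signal, visceral minus parietal (x axis), for each gene (y axis) with all 4 arrays (black circles) and with each array left out (triangles). All points lie in the grey band of differences under 1.5-fold, Jag2 between -0.58 and -0.37 and Dll1 between -0.44 and -0.34, while Notch2, Notch3, Notch4 and Hes1 have points on both sides of 0.

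The rest of the pathway was described by a list of 47 genes. Of these, 2 were called with the higher signal in visceral mesothelium and 1 with the higher signal in parietal mesothelium, or 6.38% against 9.6% of all genes, and the median log2 difference was -0.024. The 3 called genes were Dlk1, Maml2 and Dtx4. Dlk1, a membrane protein related to the Delta ligands that lacks their receptor-binding DSL domain and is known for holding back fat cell differentiation, read 10.34 and 9.97 in visceral and 8.04 and 7.80 in parietal mesothelium. The visceral arrays exceeded the parietal arrays by at least 1.93. The means of 10.15 ± 0.26 (SD, n = 2) and 7.92 ± 0.17 (SD, n = 2) differed by 2.23 on the log2 scale, with a standard error of 0.15, or 4.69-fold (adjusted p = 0.000633 from limma). Only 1.24% of all genes had a larger difference in either direction. The other 3 genes of this sublist, Dll3, Dlk2 and Dner, were not called and ranged from -0.21 to -0.024.

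Dtx4, a Deltex-type ubiquitin ligase that acts on Notch, was lower in visceral mesothelium. Its signals were 8.60 and 8.56 in the visceral and 9.63 and 9.56 in the parietal arrays, so that replicates lay close together and the tissues apart. The log2 difference was -1.02 with a standard error of 0.08, or 2.02-fold (adjusted p = 0.00113 from limma). Of the 12 ubiquitin ligases and endocytosis genes it was the only one called, or 8.33% against 9.6% of all genes. Neurl1a, a ligase that acts on Notch ligands and was chosen after its values were seen, had an adjusted p of 0.0432 from limma at a log2 difference of -0.46, under the fold of 1.5.

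Maml2, a Mastermind coactivator of the nuclear complex, was higher in visceral mesothelium, at 10.06 and 10.48 against 9.31 and 9.58. The log2 difference was 0.82 with a standard error of 0.17, or 1.77-fold (adjusted p = 0.0288 from limma). It was not called without visceral replicate 2 (difference 0.61, adjusted p = 0.0819 from limma) or without parietal replicate 1 (0.69, adjusted p = 0.0579). Maml2 has a second, dimmer row, which differed by 0.59 with a standard error of 0.20. With adjustment over all rows, limma gave an adjusted p of 0.178 for the dimmer row and 0.0797 for the brighter row used above. Of the 10 genes of the nuclear complex and its co-regulators Maml2 was the only one called, or 10% against 9.6% of all genes. Rbpj, the DNA-binding protein of that complex and named outside the rule for named genes, has 2 rows in the table that run in opposite directions. The brighter row gave 10.48 and 10.28 in visceral and 10.80 and 10.65 in parietal mesothelium, a log2 difference of -0.34 (adjusted p = 0.103 from limma). The dimmer row gave 7.74 and 7.16 against 6.95 and 6.56, a difference of 0.69 with a standard error of 0.24 (adjusted p = 0.196 from limma over all rows of the table). Neither row passed, and the mean of both differed by 0.17, so no direction can be given for Rbpj.

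**Figure D4:**
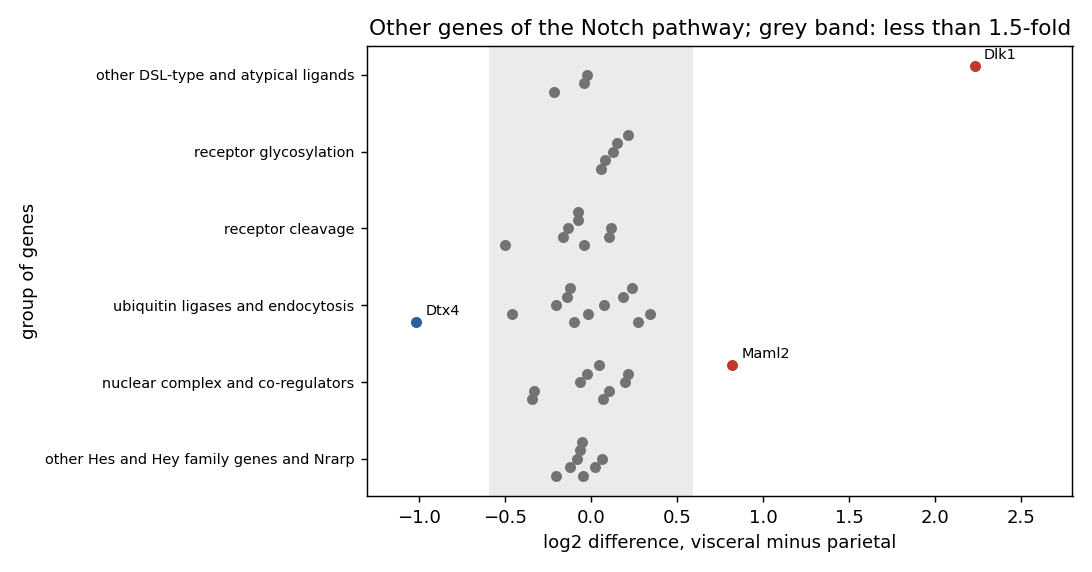
Difference in log2 signal, visceral minus parietal (x axis), for 47 further Notch pathway genes in 6 groups (y axis), 1 point per gene, red where called higher in visceral, blue where called higher in parietal and grey where not called. The grey band covers differences under 1.5-fold, and Dlk1 at 2.23, Maml2 at 0.82 and Dtx4 at -1.02 are the genes outside it.

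limma called no gene among the 5 glycosylation enzymes of the receptors, the 8 genes of receptor cleavage or the 8 further Hes and Hey family genes with Nrarp. Its unadjusted p was under 0.05 for 1, 1 and 0 genes of these groups, and that of the methods' t-test for 0, 1 and 0, against 27.1% and 19.5% of all genes. Pofut1, which adds O-fucose to Notch receptors, had the lowest adjusted p of its group, with signals of 8.80 and 8.92 in visceral and 8.63 and 8.66 in parietal mesothelium (adjusted p = 0.181 from limma for a log2 difference of 0.22 with a standard error of 0.09). The glycosylation group, which includes the Fringe enzymes, ranged from 0.057 to 0.22 in its log2 differences. Furin, the convertase that makes the first cut in the maturing receptor, read 9.30 and 9.34 against 9.89 and 9.75. It differed by -0.50 with a standard error of 0.09 (adjusted p = 0.0178 from limma), or 1.42-fold, and thus passed the adjusted p but not the fold. The other genes of receptor cleavage, among them Adam10, Adam17 and the gamma-secretase subunits, ranged from -0.16 to 0.12. Nrarp, a feedback inhibitor that Notch induces, gave 6.59 and 6.29 in visceral and 6.63 and 6.66 in parietal mesothelium, a difference of -0.20 with a standard error of 0.12 (adjusted p = 0.345 from limma). With Hes5, the gene whose promoter is printed above, at -0.083, the group of Hes and Hey family genes and Nrarp had a median difference of -0.057 and ranged from -0.20 to 0.065.

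Markers of some of the cell types in which Notch genes are known to act differed between the same arrays. For others, such as blood endothelium and satellite cells, the called share was near that of all genes. The part of any of these cell types in the values above was not tested. In such bulk samples, fewer cells of a type and less RNA per cell cannot be told apart. Of 16 genes of blood endothelium 2 were higher in parietal mesothelium, Esam (log2 difference -0.69) and Cdh5 (-0.60). These are 12.5% of the list, against 9.6% of all genes called in either direction. The other 14 were not called and lay on both sides of 0, from -0.50 (Kdr) to 0.26 (Emcn), and the median of the list was -0.0037. Signals of the list on the linear scale summed to between 4364 and 4645 in visceral and 5519 and 5752 in parietal mesothelium. Bright genes, here Esam and Kdr, weigh most in such a sum, so it does not describe the list as a whole. The same limit holds for the sums of the other marker lists given below. Of 12 genes of pericytes and smooth muscle 5 were called with the higher signal on the visceral arrays. These were Myh11 (2.67), Cnn1 (2.37), Myl9 (1.55), Tagln (1.33) and Pdgfrb (1.02). The pericyte gene Rgs5 (-1.18) was the 1 called toward the parietal arrays. The other 6 were not called and ranged from -0.11 (Mcam) to 0.55 (Abcc9). The list thus leaned toward the visceral arrays, with Rgs5 as a called exception, at a median of 0.55 and sums of 7981 to 11029 against 5238 to 5418. The 2 visceral arrays were far apart for Cnn1, at 10.08 and 8.42, and for Tagln, at 9.31 and 8.47. Notch3 is not on that list, and its arrays overlapped.

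All 12 genes of skeletal muscle fibres had the higher signal in parietal mesothelium, at a median of -5.34 and sums of 64293 to 82515 against 2093 to 2168 in visceral mesothelium. Of 5 genes of satellite cells 0 were called by limma, against 9.6% of all genes. The unadjusted p was under 0.05 for 2 of them by limma and for 2 by the methods' t-test, against 27.1% and 19.5% of all genes. Myod1 (-0.55, adjusted p = 0.0113 from limma) was nearest to the threshold among the satellite cell genes. All 10 macrophage genes and all 5 mast cell genes were higher in visceral mesothelium, with medians of 1.98 and 2.56, as were 4 of 6 B cell genes and 1 of 6 T cell genes. The 1 T cell gene is 16.7% of its list, against 9.6% of all genes called. The macrophage signals summed to between 15746 and 16505 in visceral and 3779 and 4014 in parietal mesothelium, and the B cell signals to between 1358 and 1711 against 508 and 563. Of 4 genes of lymphatic endothelium 1 was called, or 25% against 9.6% of all genes. It was Lyve1 (3.37), which macrophages also express, whereas the lymphatic factor Prox1 was at 6.19 in both tissues. Of 13 mesothelial markers 8 were called toward the parietal side and 1, Wt1 (0.84), toward the visceral side, and their signals summed to between 50786 and 53108 in visceral and 82487 and 85942 in parietal mesothelium. None of the 7 adipocyte genes was called by limma, against 9.6% of all genes. Its unadjusted p was under 0.05 for 1 of them, Plin1 (-0.28, adjusted p = 0.161 from limma), against 27.1% of all genes. The methods' t-test gave 0 without adjustment, against 19.5% of all genes. Parietal replicate 1 stood apart on this list, at 8.03 for Cidec and 8.94 for Fabp4 against 7.06 and 8.07 in parietal replicate 2, and the sums were 1815 and 1340 in these arrays against 1266 and 1423 in the visceral ones. Of 6 fibroblast genes 1 was called toward the visceral and 3 toward the parietal side. No marker is at 0, since RMA values have no true zero.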

How the data were processed

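The deposited table holds log2 values that the authors made with RMA, which corrects background, equalizes the arrays and summarizes each probe set; the submitters' processing notes name Partek 6.6. The versions of annotation and array library were not given in the sources used here, and these values entered without further normalization. Of 35556 rows, 21789 had 1 gene symbol, 1621 several and 12146 none, by a platform annotation with symbols checked through RefSeq. For each of 19938 genes the row with the highest mean over the 4 arrays was taken, and a gene of several rows can differ between them. The comparison used limma 3.58.1 (R 4.3.3), with all 4 arrays, no block, and p-values adjusted over all genes. Simulated data took the mean signals of these genes, with their spreads shuffled among genes. There limma found 66 of 100 genes changed 2-fold and 93 of 100 changed 4-fold, with 3 false calls. Far fewer genes were changed there than were called in the data, and folds under 2 were not simulated. The members and lists were chosen with earlier results of these data known. Named pathway genes are all called ones and, in groups without any, that with the lowest adjusted p. Of each marker list at most the 2 genes with the lowest adjusted p are named; Prox1, Wt1 and any other gene are named outside that rule. Alternatives were other tests, thresholds, variance priors, normalizations, filters on dim genes, probe choices, the replicate number as a block, and omission of each array. The number of arrays limits the precision. Scan dates were not used.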

Additional observations from a re-analysis of the deposited data

How the results depend on the processing

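None of the 10 Notch genes was called under the alternatives run, except that with no fold minimum limma called 2 as higher in parietal mesothelium, Jag2 and Dll1. Genes above the median signal included 5 of the 10, so that Jag2, Dll1, Dll4, Hey1 and Hes1 were not tested there. For Jag2 and Dll1 the adjusted p ran from 0.0184 to 0.267 for Jag2 and from 0.0304 to 0.196 for Dll1 over the alternatives, the highest values being those of the methods' t-test for Jag2 and of leaving out parietal replicate 2 for Dll1. Over all rows of the table they were 0.0876 and 0.0783. Differences that changed sign were those of Notch2 (-0.012 to 0.20 on leaving out each array), Notch3 (-0.15 to 0.098, and 0.0011 without parietal replicate 2), Notch4 (-0.30 to 0.044), Hes1 (-0.023 to 0.014, and 0.011 with cyclic loess) and Rbpj (0.17 with the mean of its rows). The cause was not tested. Of the other pathway genes, 2 were called toward the visceral and 1 toward the parietal side. With the methods' t-test after adjustment these were 0 and 0. The visceral count was 1 with that test's unadjusted p, with a fold of at least 2, with the mean of a gene's probes and over all rows, and 1 to 2 on leaving out each array, Maml2 being the gene lost each time. With no fold minimum 3 were called higher in parietal mesothelium. Over all genes, the 1040 calls toward visceral and 875 toward parietal mesothelium became 0 and 0 with the adjusted t-test (3895 genes with its unadjusted p under 0.05), 521 and 457 at a fold of at least 2, and 1574 and 1267 with no fold minimum. The replicate block gave 1087 and 921 calls, 0 of them among the 10 genes, and an adjusted p of 0.0316 for Notch1 and 0.0396 for Rbpj, both under 1.5-fold. Replicate numbers are not stated to mark shared animals, and deviations of same-numbered arrays correlated at 0.36 across genes, which with 2 arrays per tissue does not settle a pairing. Low signals, for which no detection call is given, limit what a small difference can show.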
